A study of Mus musculus with 22 samples.

Results

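The genes of oxidative phosphorylation were followed in bulk RNA-seq of mouse first mandibular molars. They were taken by symbol from the normalised table: nuclear subunits and assembly factors of complex I (symbols starting with Nduf and a, b, c, s or v), the 4 subunits of complex II (Sdha to Sdhd), complex III (Uqcr), complex IV (Cox4 to Cox8), ATP synthase (Atp5), and the mitochondrially encoded genes of the same complexes. This gave 121 of 28711 genes, of which 110 are nuclear and 11 are encoded in mitochondrial DNA. By class these were 7 core subunits, 30 accessory subunits and 8 assembly factors of complex I, 4 subunits of complex II, 8 of complex III, 12 of complex IV, 17 of ATP synthase (complex V), its inhibitor Atp5if1, 6 isoforms known from particular tissues, 17 pseudogenes or retrocopies and the 11 mitochondrial genes. Of the 121, 114 passed the filter on low counts and were tested. The 7 that did not pass were mt-Atp8, mt-Co2, Cox8b, Atp5l-ps1, Atp5l-ps2, Atp5l2-ps and Uqcrh-ps1.

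The 22 libraries came from molars taken on day 5 (P5) or day 11 (P11) after birth, from Tgfbr2-G357W/+ mice (Het) and wild-type littermates (WT), with 6 WT and 6 Het libraries at P5 and 5 WT and 5 Het libraries at P11. The allele is a point mutation in a TGF-beta receptor gene and models Loeys-Dietz syndrome, a connective tissue disorder. Because the mutant transcript is still made, the level of Tgfbr2 (156 to 210 CPM at P5 and 96 to 118 CPM at P11) does not check the genotype labels. The whole tooth was sampled, so each library mixes enamel-forming ameloblasts, dentine-forming odontoblasts, pulp and attached tissue. By the series text 5 Het and 8 WT animals were used, against 11 libraries of each genotype, and the labels tie no library to an animal. Some libraries may share an animal, so p-values measure the spread between libraries and may be too small.

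Oxidative phosphorylation passes electrons from NADH and succinate through complexes I and II to ubiquinone, on to complex III, cytochrome c and complex IV, which reduces oxygen. The proton gradient built on the way drives ATP synthase. Most subunits are nuclear, while a small core is encoded and transcribed in the mitochondrion itself. Several complex IV subunits exist as a broadly expressed form and a second form known from muscle, testis or lung. In enamel formation, ameloblasts first secrete matrix and later, in the maturation stage, transport ions and remove that matrix.

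Promoter sequences were looked up for the 93 nuclear members that are not pseudogenes, and 76 had an entry in the RefSeq promoter table (GRCm38.p6, 250 bases before to 50 after the start). Windows of 150 bases upstream are shown for 4 members whose level differed with age: the broadly expressed Cox6a1 at chr5:115348982-115349131 (minus strand), the muscle-type complex IV subunit Cox7a1 at chr7:30183994-30184143 (plus strand), the complex II anchor Sdhd at chr9:50603850-50603999 (minus strand), and Ndufa1, the largest faller of the nuclear subunits in WT, at chrX:37191239-37191388 (minus strand). Capitals mark letters matching a searched motif on either strand. Cox6a1 holds the NRF1 palindrome and a CCAAT box. Cox7a1 holds CCAAT boxes on the other strand, read as ATTGG. Sdhd holds the ETS motif on the other strand, read as CTTCCGG. Ndufa1 held no match.
Cox6a1: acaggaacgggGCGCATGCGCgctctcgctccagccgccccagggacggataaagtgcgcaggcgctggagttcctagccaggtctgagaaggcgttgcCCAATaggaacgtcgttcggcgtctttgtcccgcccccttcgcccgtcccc
Cox7a1: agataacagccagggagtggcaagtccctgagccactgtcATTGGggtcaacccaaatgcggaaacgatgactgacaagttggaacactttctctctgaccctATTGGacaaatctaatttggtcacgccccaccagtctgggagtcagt
Sdhd: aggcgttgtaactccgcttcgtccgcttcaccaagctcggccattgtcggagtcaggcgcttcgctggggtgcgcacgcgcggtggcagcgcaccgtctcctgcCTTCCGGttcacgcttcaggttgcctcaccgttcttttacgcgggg
Ndufa1: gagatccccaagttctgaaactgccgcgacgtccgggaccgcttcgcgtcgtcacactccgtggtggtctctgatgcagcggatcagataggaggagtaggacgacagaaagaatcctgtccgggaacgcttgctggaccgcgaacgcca

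Across the 76 promoters, the NRF1 palindrome, which is GCGCATG followed by CGC, was present in 9.2%, against 1.1% of the promoters of 26949 other genes. GCGCATG alone, which the palindrome contains, was present in 19.7% against 4.4%. The ETS motif CCGGAAG, bound by GABP among others, was present in 23.7% against 9.9%, the YY1 motif AAGATGGC in 14.5% against 3.2% and the estrogen-related receptor motif AAGGTCA in 11.8% against 5.4%. CCAAT was about as frequent in members (42.1%) as elsewhere (41.1%), and TATAAA was less frequent (7.9% against 15.7%). A match is a description of letters and not of binding.

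The second sequence of interest is shared between a mitochondrial gene and the nuclear genome, because it bears on which mitochondrial genes could be measured. The 60 bases below, at the start of mt-Co3 (cytochrome c oxidase subunit III) at chrM:8607-8666 (plus strand), are identical to bases at chr1:24613912-24613971 (minus strand) in the nuclear pseudogene Gm28437 (GENCODE M21, GRCm38). No letters are in capitals because no base differs.
mt-Co3 and Gm28437: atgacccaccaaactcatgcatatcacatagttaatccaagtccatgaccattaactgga

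Library totals were 32903949 to 45343744 counts. At P5 they were 35205844 to 41046235 in WT and 32903949 to 40498038 in Het. At P11 they were 35879149 to 40744701 in WT and 39721444 to 45343744 in Het, so P11 Het reached the greatest depth. The markers of the tissue were present: 6 secretory ameloblast markers summed to 123000 to 169000 CPM at P5 and 17400 to 44900 CPM at P11, and 8 maturation-stage markers to 1010 to 2670 CPM at P5 and 59500 to 83700 CPM at P11. One library labelled P5 Het 6 carries P5 in its title and library name and P11 in 2 other fields, and its Amelx level of 44000 CPM (the main enamel matrix gene) lies in the P5 range, where no P11 library exceeded 4450 CPM. It was kept at P5. The labels give a single batch. The number before the hyphen in the library name differs with age (3, 4 and 5 at P5, 1 and 2 at P11) and its meaning is not given, so age and this prefix cannot be told apart. Prefix 5 held P5 Het 5 and P5 Het 6 alone. In P5 Het 5 and P11 Het 2 the 17 skeletal muscle markers summed to 74.4 and 146 CPM, against 10.2 to 17.8 CPM in the other P5 libraries and 20.2 to 55.0 CPM in the other P11 libraries.

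From P5 to P11 most classes of respiratory genes rose. In WT molars the mitochondrial members made up 0.627 to 0.859% of counts at P5 and 1.14 to 1.22% at P11, and in Het molars 0.723 to 0.848% and 0.99 to 1.23%. The nuclear members made up 0.748 to 0.856% over both genotypes at P5, 0.968 to 1.10% in P11 WT and 0.934 to 1.14% in P11 Het. For both kinds of gene no P11 library fell into the P5 range. Levels below are TMM-scaled CPM (counts scaled to library size) and differences are log2 fold changes from edgeR's quasi-likelihood test on counts with Benjamini-Hochberg adjustment over all 21510 genes tested, called at an adjusted p under 0.05. In whole teeth, fewer cells of a type and less RNA per cell cannot be told apart.

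**Figure D1:**
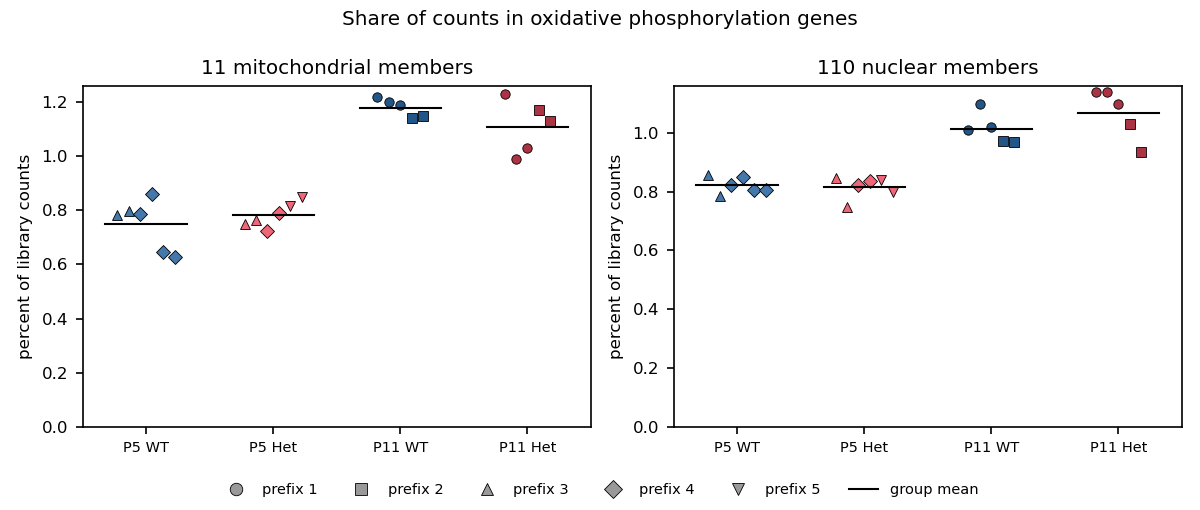
Percent of each library's counts in the 11 mitochondrial members (left) and the 110 nuclear members (right), 1 point per library, shaped by library-name prefix, with a line at each group mean. Every P11 library lies above every P5 library in both panels; P11 Het spans 0.934 to 1.14% for the nuclear members.

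In WT, 53 of the 114 tested members were higher at P11 and 6 were lower, where over all genes tested 24.8% were higher and 24.7% lower. In Het, 81 were higher and 3 lower, against 24.4% and 23.4% of all genes. The median log2 fold change of the members was 0.18 in WT and 0.35 in Het, while the median of all genes was -0.01 in each. In WT, 44 members had all P11 libraries above all P5 libraries (16.6% of all genes did) and 5 had all below (15.5%). In Het these numbers were 59 (15.9%) and 2 (14.4%). The WT count of lower members ran from 3 to 7 when single libraries were left out, and 3 of the 6, Ndufs3, Ndufa4 and Ndufaf7, had adjusted p of 0.0389, 0.0452 and 0.0289. Without P5 Het 6, the library with conflicting age labels, 81 members were higher and 2 lower in Het. Leaving out P5 Het 4, P5 Het 5, P11 WT 4, P11 WT 5 and P11 Het 2, whose muscle or oral keratinocyte markers were high for their group, left 48 higher and 3 lower in WT and 75 higher and 2 lower in Het. The test of a different age effect in Het and WT, the interaction given further on, called no member.

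**Figure D2:**
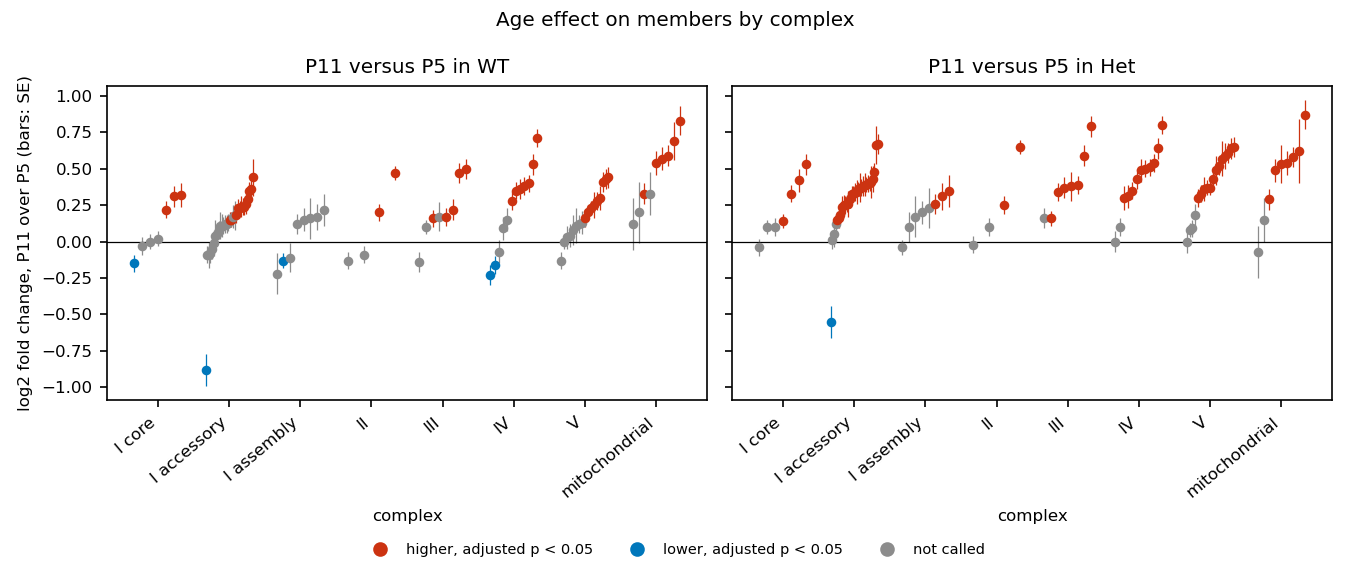
Log2 fold change of P11 over P5 for each tested subunit, assembly factor and mitochondrial gene by complex (tissue isoforms, Atp5if1 and pseudogenes are not drawn), in WT (left) and Het (right), with bars of 1 SE; red points are higher and blue points lower at an adjusted p under 0.05. Ndufa1 is the lowest point in both panels (-0.88 and -0.55), and the mitochondrial genes reach 0.83 in WT and 0.87 in Het.

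The age counts by complex below are read beside the 24.8% higher and 24.7% lower of all genes in WT, and 24.4% and 23.4% in Het. Complex I takes electrons from NADH. Of its 7 nuclear core subunits, which carry the flavin and iron-sulfur clusters, 3 rose and 1 fell in WT and 4 rose in Het. Ndufv1, which holds the NADH site, rose by 0.31 in WT and 0.53 in Het on the log2 scale. Ndufs3, another core subunit, fell by 0.15 in WT and had a log2 fold change of -0.04 in Het (adjusted p = 0.655). Of 30 accessory subunits 13 rose and 1 fell in WT, and 26 rose and 1 fell in Het, with medians of 0.14 and 0.34. Among them Ndufc1 rose by 0.36 and 0.67 and Ndufb1 by 0.44 and 0.66 on the log2 scale. Of the 8 assembly factors, which build the complex and are not part of it, none was higher in WT by the edgeR test and 3 were higher in Het. With 7 core subunits and 8 assembly factors, these counts are too small to set apart from the shares of all genes. Ndufaf7, a methyltransferase among them, fell by 0.13 in WT.

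Ndufa1, an X-linked accessory subunit needed for complex I assembly (chrX:37187588-37191163), fell in both genotypes, the one accessory subunit called lower. At P5 its lowest, median and highest values were 158, 181 and 201 CPM in WT and 172, 185 and 201 CPM in Het. At P11 the WT libraries had 79.4, 106, 94.4, 111 and 92.0 CPM and the Het libraries 110, 166, 142, 116 and 102 CPM. The P11 libraries of each genotype lay below all P5 libraries of that genotype, with P11 Het 2 nearest. The log2 fold change was -0.88 ± 0.11 (SE, adjusted p = 2.84e-07) in WT and -0.55 ± 0.11 (adjusted p = 0.00017) in Het.

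Complex II links the TCA cycle to the chain. Its membrane anchor Sdhd (chr9:50596357-50603812) had a lowest, median and highest level of 82.1, 84.1 and 90.2 CPM in P5 WT and of 77.6, 84.3 and 86.5 CPM in P5 Het. The P11 values were 125, 123, 115, 112 and 111 CPM in WT and 129, 134, 141, 123 and 127 CPM in Het, all above both P5 groups. Sdhd rose by 0.47 ± 0.05 (SE, adjusted p = 3.72e-08) in WT and 0.65 ± 0.05 (adjusted p = 1.33e-10) in Het on the log2 scale. The other anchor, Sdhc, rose by 0.20 and 0.25. The catalytic subunits did not pass: the log2 fold change was -0.13 (adjusted p = 0.0534) in WT and -0.02 in Het for the flavoprotein Sdha, and -0.09 and 0.10 for the iron-sulfur subunit Sdhb.

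Complex III passes electrons from ubiquinol to cytochrome c. Of its 8 members 5 rose in WT and 7 in Het. Uqcr10, a small subunit (chr11:4701973-4704342), had a lowest, median and highest level of 101, 109 and 118 CPM in P5 WT and 92.9, 108 and 109 CPM in P5 Het. At P11 it had 151, 165, 151, 155 and 143 CPM in WT and 173, 200, 192, 164 and 164 CPM in Het. No P11 library overlapped P5, and the log2 fold change was 0.50 ± 0.07 (SE, adjusted p = 1.2e-06) in WT and 0.79 ± 0.07 (adjusted p = 7.19e-10) in Het. Uqcrb, which contributes to the quinone site, rose by 0.47 and 0.59.

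Complex IV, cytochrome c oxidase, had 7 of 12 broadly expressed members higher and 2 lower in WT, and 10 higher and none lower in Het (edgeR). The largest rise among them was that of Cox6a1 (chr5:115345642-115348981), which regulates the complex and whose promoter is printed above. It had 60.4, 66.3 and 69.9 CPM (lowest, median, highest) in P5 WT and 62.8, 66.2 and 69.9 CPM in P5 Het. At P11 its level was 111, 113, 110, 103 and 97.2 CPM in WT and 131, 113, 122, 112 and 99.8 CPM in Het. The groups did not overlap between ages, and the fold was 1.64 in WT (log2 0.71 ± 0.06 SE, adjusted p = 1.39e-09) and 1.74 in Het (0.80 ± 0.06, adjusted p = 1.9e-10). Cox7b, a small structural subunit, rose by 0.53 and 0.64. The 2 that fell in WT were Cox7a2l (by 0.23), which joins complexes III and IV into supercomplexes, and Ndufa4 (by 0.16), a complex IV subunit first assigned to complex I; in Het their log2 fold changes were 0.00 (adjusted p = 0.967) and 0.10 (adjusted p = 0.206).

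ATP synthase had 9 of 17 members higher in WT and 13 in Het. The catalytic subunits Atp5f1a and Atp5f1b rose by 0.43 and 0.44 in WT and by 0.64 and 0.65 in Het on the log2 scale, and Atp5mc1, which encodes the rotor ring's c subunit, by 0.41 and 0.61. Its sister gene for the same protein, Atp5mc2, had log2 fold changes of 0.03 (adjusted p = 0.794) and 0.00 (adjusted p = 0.983). Atp5if1, the inhibitor that keeps the enzyme from running backwards, had 91.8 to 107 CPM at P5 and 126 to 166 CPM at P11, and rose by 0.54 ± 0.07 (SE, adjusted p = 2.72e-07) in WT and 0.62 ± 0.07 (adjusted p = 3.09e-08) in Het. Of its exon bases 33.7% overlap another gene, which unstranded reads cannot separate.

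The isoforms known from particular tissues changed most. Cox6a2, the heart and skeletal muscle form of Cox6a1, rose from near 0 to a level seen in every P11 library. Cox7a1 (heart, skeletal muscle and brown fat), Cox6b2 (testis) and Ndufa4l2 (a relative of Ndufa4 induced by low oxygen in other cells) also rose, while Cox4i2, the lung form of subunit IV, fell in both genotypes.

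Cox6a2 (ENSMUSG00000030785, chr7:128205435-128206387, minus strand) had a lowest, median and highest level of 0.167, 0.229 and 0.397 CPM in P5 WT and 0.129, 0.525 and 0.946 CPM in P5 Het, resting on 5 to 38 counts per library. At P11 it had 25.6, 22.1, 17.3, 24.3 and 22.2 CPM in WT and 20.2, 21.2, 24.6, 22 and 23.5 CPM in Het, on 704 to 1025 counts. No P5 library came near any P11 library. The fold was 83.9 in WT (log2 6.39 ± 0.27 SE, edgeR adjusted p = 2.78e-15) and 42.8 in Het (log2 5.42 ± 0.25, adjusted p = 1.22e-14). Per kilobase of transcript, WT levels rose from 0.385 to 32.8 CPM per kb, next to 114 and 187 CPM per kb for Cox6a1. Cox6a2 made up 0.185 to 1.34% of the counts of both genes at P5 and 13.4 to 19.0% at P11.

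The muscle markers moved with age as well: all 17 were listed, none was at 0 throughout a group, and their sum was 10.2 to 74.4 CPM at P5 and 20.2 to 146 CPM at P11. In P11 Het 2, the library with the most muscle marker RNA (Acta1 at 33.9 CPM and Ckm at 11.7 CPM), Cox6a2 was 21.2 CPM, inside the range of the other P11 libraries. In P11 Het 1, with the least muscle marker RNA at P11 (20.2 CPM), it was 20.2 CPM. With the 5 high-marker libraries left out, the log2 fold change of Cox6a2 was 6.35 in WT and 5.85 in Het. At P5, P5 Het 5 had both the highest muscle marker sum of its age and the highest Cox6a2 level, 0.946 CPM. Single muscle markers differed from their sum. Myh4 was 0 to 0.323 CPM in the P5 libraries and 0.97 to 3.59 CPM in the P11 libraries. Myh1 was 0 to 0.598 CPM and 0.976 to 29.4 CPM, also without overlap. Mylpf overlapped between ages, with 2.84 to 6.1 CPM and 1.88 to 7.24 CPM. The part of muscle cells in the Cox6a2 rise was not tested.

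Cox6b2 (chr7:4751792-4753094) had 0.78, 1.52 and 1.78 CPM in P5 WT and 1.22, 1.36 and 1.92 CPM in P5 Het, then 8.94, 10.5, 10.6, 9.36 and 7.74 CPM in P11 WT and 10.6, 9.38, 11.0, 9.82 and 7.86 CPM in P11 Het. The ages did not overlap, with folds of 6.6 (log2 2.72 ± 0.17 SE, edgeR adjusted p = 2.65e-12) and 6.87 (2.78 ± 0.17, adjusted p = 2.25e-12). Its share of the Cox6b1 and Cox6b2 counts went from 0.553 to 1.26% at P5 to 3.8 to 5.54% at P11.

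Cox7a1 (chr7:30184144-30186078) had 0.965, 1.13 and 1.56 CPM in P5 WT and 0.617, 1.2 and 1.31 CPM in P5 Het. At P11 it had 5.62, 7.28, 6.59, 4.15 and 2.21 CPM in WT and 8.14, 11.1, 8.05, 5.77 and 4.82 CPM in Het. Every P11 library was above every P5 library, and in each P11 genotype the 2 libraries with prefix 2 were the lowest. The fold was 4.21 in WT (log2 2.07 ± 0.26 SE, edgeR adjusted p = 5.05e-07) and 6.72 in Het (2.75 ± 0.27, adjusted p = 7.62e-09). Brown adipocyte markers, 8 listed and in the table, summed to 21.0 to 31.0 CPM in P5 WT, 39.8 to 63.2 CPM in P5 Het and 80.1 to 243 CPM at P11; P11 Het 2, with the highest Cox7a1, had the lowest of these P11 sums and the highest muscle marker sum (146 CPM). Cox8b, the muscle and brown fat form of subunit VIII, stayed at or below 0.271 CPM except in P11 Het 2 (0.916 CPM).

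Ndufa4l2 (chr10:127514967-127517154) had 3.43, 4.86 and 5.87 CPM in P5 WT and 4.06, 4.53 and 5.49 CPM in P5 Het. The P11 values were 9.33, 11.1, 12.4, 29.2 and 30.4 CPM in WT and 8.58, 15.7, 11.7, 14.3 and 20.3 CPM in Het. All P11 libraries exceeded P5, and the WT libraries split by prefix, with WT 4 and 5 highest. These same libraries, with P11 Het 2, had the most oral keratinocyte marker RNA (2010, 1110 and 1220 CPM, against 231 to 497 CPM in the other P11 libraries; Sprr2a1 was at 0 in every group). The log2 fold change was 1.93 ± 0.27 (SE, edgeR adjusted p = 1.73e-06) in WT and 1.58 ± 0.27 (adjusted p = 2.77e-05) in Het. With the 5 high-marker libraries left out, Ndufa4l2 still rose in WT, by 1.18.

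Cox4i2 (chr2:152754173-152765037) had 22.6, 28.1 and 33.6 CPM in P5 WT and 27.5, 28.2 and 33.7 CPM in P5 Het. At P11 it had 16.7, 15.4, 16.4, 16.0 and 16.6 CPM in WT and 16.4, 21.8, 22.8, 17.6 and 22 CPM in Het, all below the P5 libraries of the same genotype. It fell by 0.79 ± 0.10 (SE, edgeR adjusted p = 2.14e-07) in WT and by 0.55 ± 0.09 (adjusted p = 3.25e-05) in Het on the log2 scale. Its share of the Cox4i1 and Cox4i2 counts was 13.2 to 18.5% at P5 and 7.82 to 11.6% at P11.

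**Figure D3:**
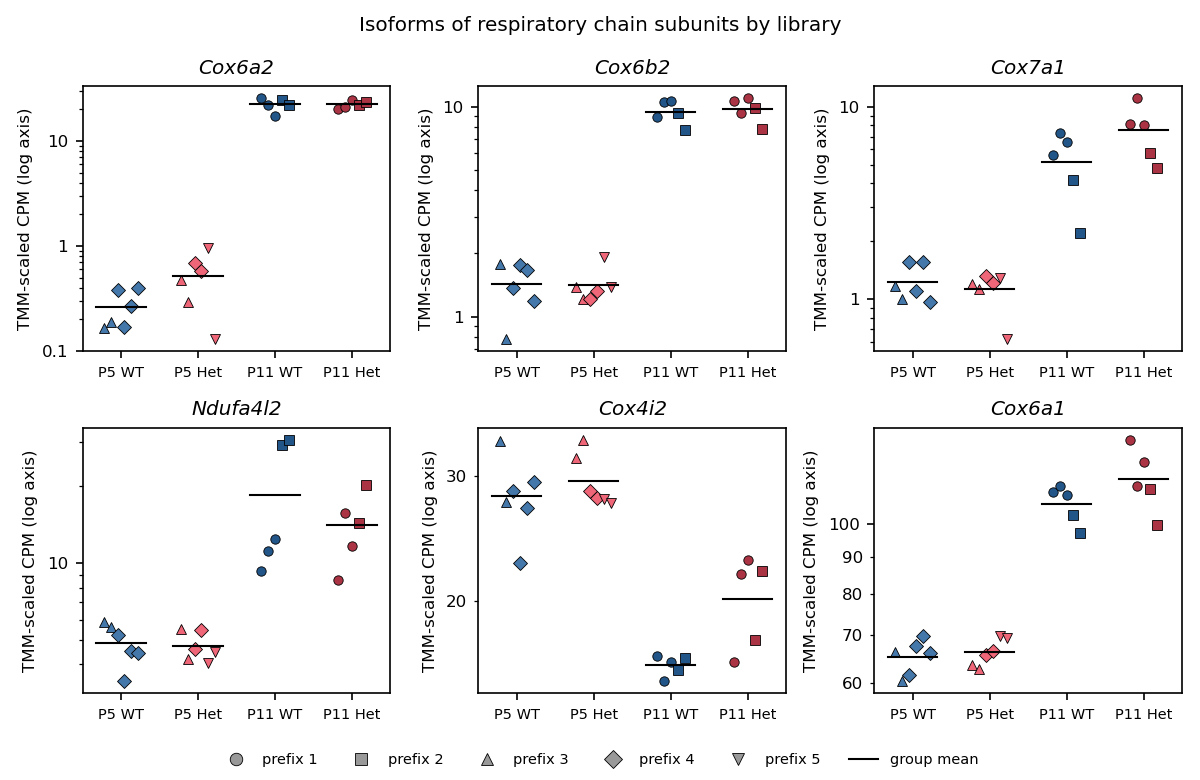
TMM-scaled CPM per library (log axis) of 5 tissue isoforms and of Cox6a1, shaped by library-name prefix, with a line at each group mean. Cox6a2 lies below 1 CPM in all P5 libraries and at 17.3 to 25.6 CPM at P11; Cox4i2 is the only panel in which P11 lies below P5.

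Of the 9 tested mitochondrial genes, 6 rose in WT and 7 in Het, with medians of 0.54 and 0.53 on the log2 scale. Over all genes tested, 24.8% rose in WT and 24.4% in Het. mt-Nd1, a membrane core subunit of complex I (chrM:2751-3707), had a lowest, median and highest level of 3790, 3930 and 4340 CPM in P5 WT and 3320, 3940 and 4760 CPM in P5 Het. At P11 it had 6370, 5650, 5790, 6110 and 5860 CPM in WT and 5940, 5210, 6000, 6070 and 6050 CPM in Het. The ages did not overlap, and mt-Nd1 rose by 0.57 in WT and 0.54 in Het.

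The catalytic subunit of complex IV, mt-Co1, went from 961 to 1270 CPM at P5 to 1530 to 1730 CPM at P11, rising by 0.59 and 0.58. mt-Nd6, the gene read from the other mitochondrial strand (chrM:13552-14070), went from 44.0 to 64.6 CPM to 84.2 to 113 CPM and rose by 0.83 and 0.87. Unstranded reads cannot tell its transcript from RNA of the opposite strand, and 2.7% of its exon bases overlap mt-Nd5. Among further complex I subunits, mt-Nd5 rose by 0.69 and 0.53, mt-Nd4 by 0.54 and 0.49 and mt-Nd2 by 0.33 and 0.29. mt-Cytb, the complex III subunit, did not pass, with log2 fold changes of 0.33 (edgeR adjusted p = 0.0605) and 0.15 (adjusted p = 0.42). Its P5 WT libraries ran from 1130 to 2120 CPM, a range that P11 WT (2040 to 2270 CPM) overlapped.

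Per kilobase of transcript in WT, mt-Nd1 was the most abundant tested member at both ages, with 4190 CPM per kb at P5 and 6220 at P11. mt-Cytb followed among the mitochondrial genes with 1490 and 1880 CPM per kb, then mt-Co1 with 705 and 1060. At the other end were mt-Atp6 with 2.53 and 2.74 CPM per kb and mt-Co3 with 0.743 and 0.853 CPM per kb, although these genes lie on the same polycistronic transcript as mt-Co1. Of the 11 mitochondrial members, 4 had under 100 counts in every library: mt-Co3 12 to 35, mt-Co2 2 to 11, mt-Atp6 38 to 96 and mt-Atp8 0 to 12.

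In the GENCODE M21 transcripts, 99.9% of all 100-base stretches of mt-Co3, and 99.5% of those of mt-Co2 and of mt-Atp6, also occur in a transcript of another gene. For mt-Nd4 the share was 60.8%, for mt-Co1 30.8%, for mt-Nd2 3.2% and for mt-Nd1, mt-Nd5, mt-Nd6, mt-Cytb and mt-Atp8 0%. mt-Nd3 and mt-Nd4l, no members because only the raw table lists them, had 0 to 5 and 0 to 2 counts and shares of 97.6% and 98.5%. The other genes include a run of 7 nuclear pseudogenes on the minus strand of chr1:24611535-24616197, one of which carries the 60 bases printed above. These 7 had 0 to 235 counts per library. Sequence outside annotated transcripts was not searched, and the annotated copies of mt-Atp6 and mt-Co2 in this run lie 233 bases apart. The 0% of mt-Atp8 therefore does not cover a copy that is not annotated. mt-Atp8 is 204 bases long, and the sources used here do not give how reads matching several places, or genes that overlap, were counted. The levels of mt-Co3, mt-Co2, mt-Atp6 and mt-Atp8 are therefore uncertain, and so is the Het age call of mt-Co3 (log2 0.62 ± 0.22 SE, adjusted p = 0.0217); in WT its log2 fold change was 0.20 (adjusted p = 0.468).

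**Figure D4:**
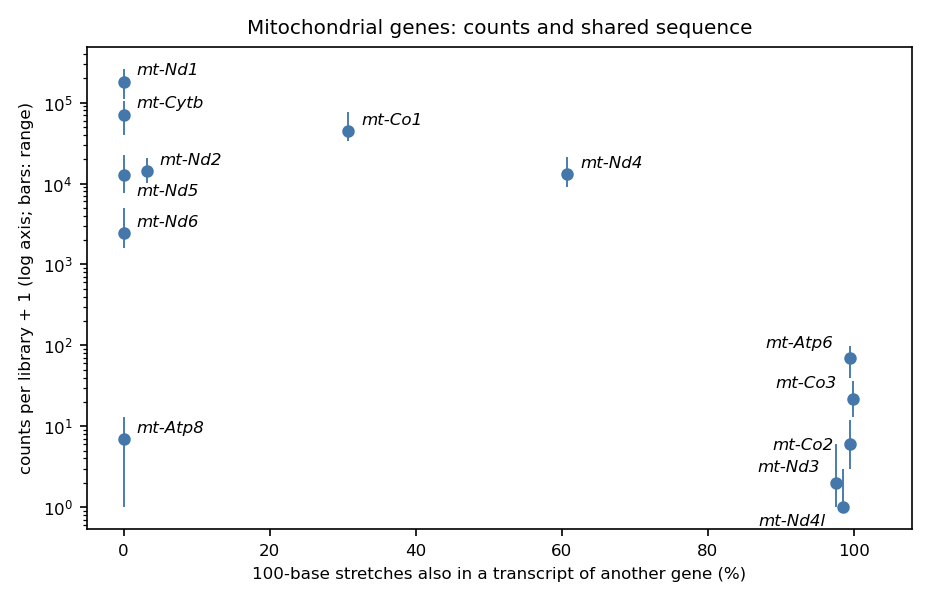
Median counts per library plus 1 (log axis, bars from lowest to highest library) of 13 mitochondrial protein-coding genes against the percent of their 100-base stretches found in a transcript of another gene. All 5 genes at 97.6% or above have under 100 counts in every library. mt-Atp8 combines a share of 0% with 0 to 12 counts, where only annotated transcripts were searched.

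Nuclear members had less shared sequence: Ndufaf2 (62.4%) was the only nuclear member outside the pseudogenes with more than 50% of stretches shared. Of the 17 pseudogenes and retrocopies, 13 were tested, and 3 rose in WT while 4 rose and 1, Atp5k-ps2, fell in Het. The share that rose was 23.1% in WT and 30.8% in Het, against 24.8% and 24.4% of all genes. Their counts may include reads of the parent gene.

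Genes that serve the same pathway but lie outside the symbol rule were counted from lists. Over all genes tested, 24.8% were higher and 24.7% lower at P11 in WT, and 24.4% and 23.4% in Het. The age counts of every list below are read beside these shares. Of 17 tested genes of pyruvate dehydrogenase and the TCA cycle, which make the NADH and succinate, 8 rose and none fell in WT by the edgeR test (median 0.14), and 14 rose and none fell in Het (0.31). Idh3a, a subunit of NAD-dependent isocitrate dehydrogenase, rose by 1.05 and 1.44, from 131 ± 11.7 CPM (SD, n = 6) to 271 ± 23.6 CPM (SD, n = 5) in WT. The mitochondrial ribosome translates the mitochondrial transcripts. Of 82 genes with symbols of its proteins, some of them pseudogenes, 29 rose and 4 fell in WT (median 0.12) and 42 rose and 1 fell in Het (0.20). The 1 that fell in Het was the pseudogene Mrps36-ps2 (-0.59), which also fell in WT (-0.62). Another pseudogene, Mrpl48-ps, was among those that rose in WT (0.60). Of 18 electron carriers and ubiquinone synthesis genes 5 rose and 1 fell in WT and 8 rose and 1 fell in Het. The 5 of 18 that rose in WT lay near the share of all genes. Cytochrome c, Cycs, rose by 0.46 and 0.68.

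Lists for building the complexes and expressing mitochondrial DNA are read beside the 24.8% higher and 24.7% lower of all genes in WT, and 24.4% and 23.4% in Het. Of 40 assembly factors outside the symbol rule 8 rose and 9 fell in WT and 9 rose and 3 fell in Het. Uqcc2, for complex III, rose by 0.64 and 0.68, and Sdhaf3, for complex II, fell by 0.75 and 0.35. Of 20 genes for mitochondrial DNA maintenance and expression 3 rose and 7 fell in WT and 5 rose and 2 fell in Het. The mitochondrial DNA polymerase Polg rose by 0.56 and 0.37, while its accessory subunit Polg2 fell by 0.44 and 0.40.

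Of 16 regulators of respiratory genes 5 rose and 6 fell in WT, and 6 rose and 6 fell in Het. The coactivator Ppargc1b fell by 1.70 and 1.35, from 23.0 ± 1.98 CPM (SD, n = 6) to 7.07 ± 1.93 CPM (SD, n = 5) in WT, and the oxygen-responsive factor Hif1a rose by 1.87 and 1.62. The better-known coactivator Ppargc1a had log2 fold changes of 0.03 (adjusted p = 0.921) and 0.43 (adjusted p = 0.0589). Of the factors whose motifs were searched above, Nrf1 fell by 0.30 and 0.19, Yy1 rose by 0.47 and 0.32, Gabpa had -0.03 (adjusted p = 0.76) and -0.12 (adjusted p = 0.156), and Esrra had 0.19 (adjusted p = 0.094) in WT and rose by 0.30 in Het. The estrogen-related receptors Esrrb (-0.81 and -1.03) and Esrrg (-1.14 and -1.35) were called lower in both genotypes. Their group means were 0.522 to 1.72 CPM. Ppargc1a, Nrf1, Yy1, Gabpa and Esrra were named for those roles after their values were known. Counted by motif in WT, 1 of 7 tested members with the NRF1 motif rose (median 0.11) against 33 of 68 without it (0.17), and 18 of 32 with CCAAT rose and none fell (0.18), against 16 higher and 5 lower of 43 without it (0.13). In Het, 5 of 7 with the NRF1 motif rose (median 0.25) against 51 of 68 without it (0.36), and 23 of 32 with CCAAT rose (0.33) against 33 of 43 without it (0.36). With ETS, 9 of 18 rose in WT against 25 of 57 without it. The estrogen-related receptor motif had 4 of 9 against 30 of 66, and YY1 6 of 11 against 28 of 64. GCGCATG had 5 of 15 against 29 of 60, and TATAAA 0 of 5 against 34 of 70. In Het, ETS had 12 of 18 against 44 of 57, and YY1 9 of 11 against 47 of 64. GCGCATG had 10 of 15 against 46 of 60 there, and TATAAA 3 of 5 against 53 of 70. For the estrogen-related receptor motif it was 6 of 9 against 50 of 66 in Het. A link of motif and age change was not tested.

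Glycolysis, the cytosolic route to ATP, also changed with age: 15 of 22 genes rose and 1 fell in WT (median 0.80), and 16 rose and none fell in Het (0.64). Ldha, lactate dehydrogenase A, rose by 1.71 and 1.63, from 299 ± 35.9 CPM (SD, n = 6) to 978 ± 160 CPM (SD, n = 5) in WT. The phosphofructokinase Pfkp rose by 1.75 and 1.69, and the hexokinase Hk2 fell by 0.88 in WT. Other cell types moved with age too: 10 osteoclast markers summed to 56.7 to 98.1 CPM at P5 and 311 to 506 CPM at P11, 7 detected erythroid markers to 53.8 to 98.7 and 177 to 417 CPM, and 9 myeloid markers to 107 to 157 CPM over both ages. Their part in the age results was not tested.

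Between genotypes no member was called. At P5, 0 of 114 members were higher or lower in Het (edgeR), where 0.0651% and 0.195% of all genes were. At an unadjusted p under 0.05 there were 3 members, 1 higher and 2 lower, where 2.79% and 3.43% of all genes were. DESeq2 and limma-voom also called 0. The log2 fold change was positive for 30 of 114 members (48.8% of all genes), with a median of -0.03. The smallest adjusted p was that of Cox6a2 (0.97 ± 0.32 SE, adjusted p = 0.471), at the low P5 levels given above and with P5 Het 6 below all WT libraries. mt-Co3 had -0.55 ± 0.21 (adjusted p = 0.639) on the few counts described. Ndufa8, an accessory subunit of complex I, was the one member whose Het libraries all lay below WT (-0.11 ± 0.04, adjusted p = 0.673), as 0.507% of all genes did, and none lay all above (0.344%).

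At P11, 0 of 114 members were called in either direction (edgeR), where 0.0232% of all genes were higher and 0.00465% lower, and DESeq2 and limma-voom also called 0. At an unadjusted p under 0.05, 33 members were higher and 0 lower, where 5.89% and 3.96% of all genes were. The log2 fold change was positive for 98 of 114 members (48.3% of all genes), with a median of 0.11. Of the 87 tested nuclear subunits, assembly factors and the inhibitor, 86 were positive, with a median of 0.12, while at P5 12 of the 87 were, with a median of -0.03. These genes vary together between libraries (given further on), so their signs are not independent.

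By complex, the P11 genotype values were positive for 30 of 30 accessory subunits of complex I (median 0.12), 8 of 8 members of complex III (0.16), 12 of 12 of complex IV (0.12) and 16 of 17 of ATP synthase (0.13). The core of complex I had a median of 0.08 and complex II of 0.11. The mitochondrial genes had 2 of 9 positive and a median of -0.02. None of these differences in single genes passed the test (edgeR, smallest adjusted p = 0.239, with the counts at an unadjusted p given above), so no gene was called higher in Het.

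The smallest adjusted p was that of Ndufa1, whose library values are given above: 79.4 to 111 CPM in P11 WT and 102 to 166 CPM in P11 Het, which overlap. Its log2 fold change was 0.40 ± 0.11 (SE, edgeR adjusted p = 0.239), and over the alternative settings it ran from 0.28 to 0.47 with adjusted p of 0.0854 to 0.569. Ndufc1, an accessory subunit in the membrane arm, had 218, 233, 218, 221 and 205 CPM in P11 WT and 249, 291, 273, 237 and 234 CPM in P11 Het. The Het libraries all lay above WT, and the log2 fold change was 0.23 ± 0.07 (SE, edgeR adjusted p = 0.292).

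Ndufb4, another accessory subunit, was the second member without overlap, with 26.7, 29.5, 27.7, 27.5 and 27.4 CPM in P11 WT and 30.7, 34.3, 34.8, 30.3 and 29.9 CPM in P11 Het (0.21, adjusted p = 0.373). Such a gap was seen for 2 of 114 members, where 0.614% of all genes had Het above WT and 0.748% below. Uqcr10 (0.22 ± 0.07, adjusted p = 0.322), the complex IV subunit Cox7c (0.26 ± 0.08, adjusted p = 0.327) and Cox4i2 (0.31 ± 0.10, adjusted p = 0.327) followed.

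**Figure D5:**
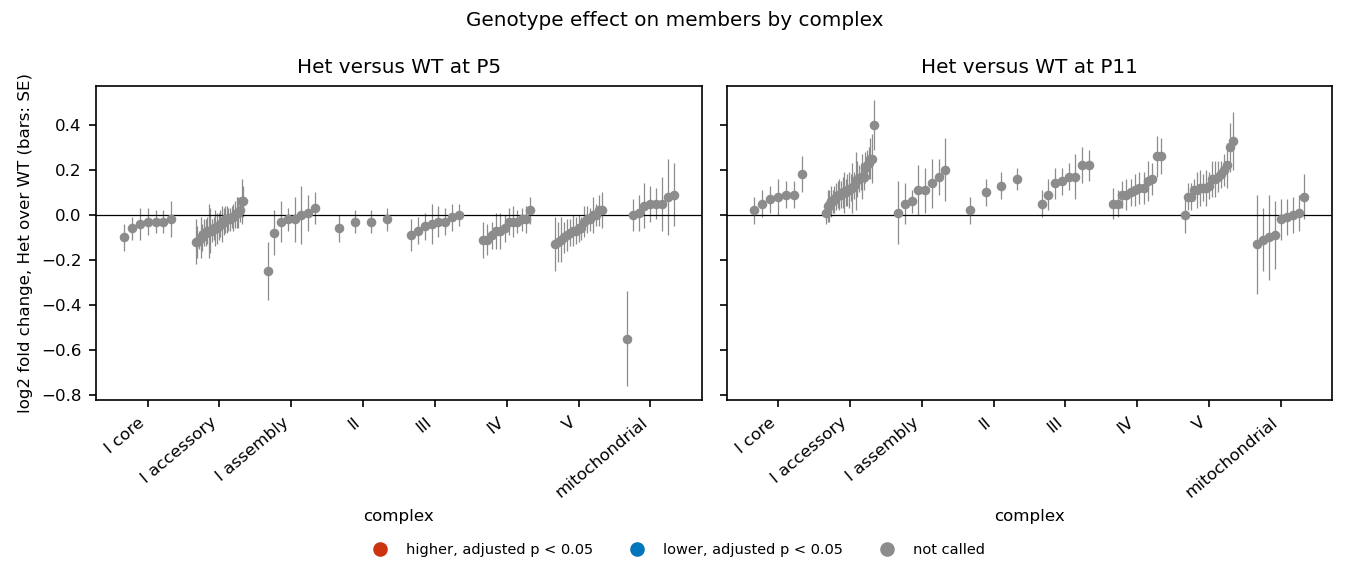
Log2 fold change of Het over WT for each tested subunit, assembly factor and mitochondrial gene by complex (tissue isoforms, Atp5if1 and pseudogenes are not drawn), at P5 (left) and P11 (right), with bars of 1 SE. No point is coloured because no member was called; at P11 the nuclear classes lie mostly above 0, with Ndufa1 highest at 0.40, and the mitochondrial genes lie around 0.

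Several other values moved with the P11 Het libraries. The summed CPM of the nuclear members was 9700, 10000 and 9480 in P11 WT 1 to 3 and 9520 and 9290 in WT 4 and 5, and 10500, 11200 and 11500 in P11 Het 1 to 3 and 9920 and 9510 in Het 4 and 5, so Het 2 and 3 were highest. The secretory ameloblast sum was 26200, 23800, 25200, 17900 and 17400 CPM in WT and 33400, 44900, 42300, 21000 and 18400 CPM in Het, with the same libraries highest. The odontoblast sum went the other way, with 21100 to 28200 CPM in WT and 18400, 10300, 11200, 25500 and 26300 CPM in Het. Its single markers differed, and Dspp and Dmp1 made up a small part of it. Dspp was 709 to 1380 CPM in WT and 1160, 1550, 1380, 1220 and 1170 CPM in Het, where Het 2 and 3 were highest. Dmp1 was 182 to 428 CPM in WT and 132, 150, 151, 323 and 262 CPM in Het. The sum is therefore no measure of odontoblast number. Het 2 also had the raised muscle (146 CPM) and oral keratinocyte (1220 CPM) sums given above. Enam, an enamel matrix gene, was 356, 200, 388, 33.6 and 39.7 CPM in WT and 2370, 2710, 1860, 141 and 70.3 CPM in Het. In both genotypes the libraries with prefix 2 (4 and 5) were the lowest for these ameloblast values. The part of these values in the genotype result was not tested.

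Transcript length moved with the P11 genotype values as well. The 25 nuclear members with transcripts under 500 bases had a median log2 fold change of 0.20, the 56 of 500 to 1000 bases 0.10, the 20 of 1000 to 2000 bases 0.12 and the 4 longer ones 0.11. These bins take in the 13 tested pseudogenes and retrocopies (median 0.03) and the 5 tested tissue isoforms (0.04), most of them under 500 bases. Other genes under 500 bases, 1481 in number, had a median of -0.01. Across the 87 nuclear members above, which leave out pseudogenes and tissue isoforms, Spearman's rho of length and log2 fold change was -0.35. These genes are not independent replicates. The 87 cytosolic ribosomal protein genes, also short and abundant, had a median of 0.04. Among the lists, the P11 genotype values were positive for 17 of 17 pyruvate dehydrogenase and TCA cycle genes and 5 of 22 glycolysis genes. They were positive for 62 of 82 genes with mitochondrial ribosomal protein symbols, pseudogenes included. In each list 0 were called (edgeR).

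Averaged over both ages, 0 members were called (edgeR; 0.0651% of all genes were higher and 0.107% lower), and 5 were higher and 1 lower at an unadjusted p under 0.05 (3.21% and 3.64% of all genes). Ndufa1 had 0.23 ± 0.08 (SE, adjusted p = 0.361). The interaction, the difference of the Het and WT age effects, called 0 members (edgeR; 0.0139% higher and 0.0% lower among all genes). At an unadjusted p under 0.05 it gave 35 positive and 1 negative member, against 6.26% and 4.03% of all genes, and 97 of 114 values were positive (49.7% of all genes), with a median of 0.14. Its smallest adjusted p was that of Ndufc1 (0.31 ± 0.09 SE, adjusted p = 0.354). DESeq2 and limma-voom called 0 in both. The interaction uses the same libraries as the genotype comparisons and adds no separate evidence to them. When the prefix entered as a block, the members called stayed at 0 in all 4 comparisons. Of all genes it then called 0.093% higher and 0.228% lower at P5, 0.219% and 0.177% at P11, 0.167% and 0.228% on average and 0.107% and 0.0279% for the interaction; the smallest P11 adjusted p was then that of Sdhd (0.16 ± 0.04 SE, adjusted p = 0.134).

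The prefix itself separated libraries of the same age. At P11, over both genotypes, 1 member was higher and 10 were lower in prefix 2 than in prefix 1 (edgeR), where 2.62% of all genes were higher and 3.46% lower. Ndufa4l2 was the higher one (0.98 ± 0.15 SE, adjusted p = 0.00047). Among the lower ones were Cox7a1 (-0.90 ± 0.20, adjusted p = 0.00981), Atp5f1a (-0.26), Atp5f1b (-0.25), the Rieske iron-sulfur subunit Uqcrfs1 (-0.33), Cox7b (-0.23), Atp5po (-0.25), Atp5mc1 (-0.21), Sdhc (-0.18) and the assembly factor Ndufaf6 (-0.40). Of all 114, 98 were negative, with a median of -0.10, where 48.3% of all genes were positive. The coactivator Ppargc1a was lower in the same contrast (-0.72 ± 0.10, adjusted p = 0.000316).

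The number of lower members in prefix 2 rested on few libraries: it was 2 without P11 WT 5 or without P11 Het 5, 5 without P11 WT 4 or without P11 Het 4, and 6 without P11 WT 1 or without P11 Het 3. At P5, prefix 4 against prefix 3 gave 0 members by edgeR (1.51% of all genes higher and 1.26% lower) and 6 at an unadjusted p under 0.05 (8.61% of all genes higher and 8.52% lower). DESeq2 called 1 lower. The smallest adjusted p was that of mt-Co1 (-0.21, adjusted p = 0.0913).

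Within groups, the nuclear members varied together from library to library. Over the 22 libraries, with group means removed, the median Pearson correlation between pairs of 87 nuclear members was 0.42 (quartiles 0.20 to 0.59), while that between these genes and all tested genes was 0.00 (-0.19 to 0.20). The 7 mitochondrial genes with higher counts had a median pairwise correlation of 0.52 (0.26 to 0.67). Between nuclear and mitochondrial members it was -0.04 (-0.24 to 0.16). These pairs share libraries, depth and scaling, and the values are a description. At P5, WT 5 and WT 6 had the lowest mitochondrial level (mean log2 deviations from the group of -0.24 and -0.25) with nuclear deviations of 0.01 and 0.0, and at P11, Het 2 had a nuclear deviation of 0.11 and a mitochondrial one of -0.07.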

How the data were processed

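The raw counts of 55439 features in 22 libraries were deposited by the authors. Of these, 18 features name no mouse gene (0.000109 to 0.000457% of a library's counts) and were left out. The authors also deposited a normalised signal table, TMM-scaled CPM of 28711 genes, which was recomputed from the counts within a relative difference of 5e-15. Per the labels' protocols, RNA went through an unstranded Nextera XT kit and was read in pairs of 100 bases; no molecular identifiers are mentioned. The build GRCm38 and the tools limma, edgeR, DESeq2 and STAR 2.7.3a are named per the submitters' processing notes. For the read counter, its annotation and its handling of multiply matching reads, the setting was not given in the sources used here.

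Counts were tested with edgeR 4.0.16 (R 4.3.3): TMM factors, filterByExpr (minimum count 10, minimum total 15), 21510 genes, all libraries in 4 groups, 18 residual degrees of freedom, a two-sided quasi-likelihood test, Benjamini-Hochberg over all genes and a threshold of 0.05. SE is the log2 fold change over the square root of F. A second fit split the groups by library-name prefix (13 residual degrees of freedom). Alternatives used DESeq2 1.42.0, limma 3.58.1, RLE factors, no filter, covariates and left-out libraries. The fits were tested on simulated data. For Het against WT, a 1.25-fold change was called in 34.3% of 67 changed genes at P5 and 16.4% at P11. A 2-fold change was called in 97.0% at each age. A small genotype difference could therefore often go uncalled. Tables and figures used Python 3.11.15, pandas 2.3.3 and matplotlib 3.10.9. Transcript length is the median over a gene's protein-coding transcripts in GENCODE M21. Library totals of 32903949 to 45343744 counts set the precision; the counts behind low values are given with them.

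The members and lists were chosen with earlier results of these data known. The named genes were all mitochondrial members, the tissue isoforms, the 12 called nuclear members of largest change per comparison (or the 5 of smallest p) and up to 3 of each list per direction; single genes outside this rule are named as members of small counts or as partners of a described gene, after their values were seen. Replicate numbers were not used to pair libraries in the main fits. Values of 1 member are not reported here; it stays in the counts.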

Additional observations from a re-analysis of the deposited data

Results flagged for a closer look

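In 240 sets of libraries (a gene, class sum or isoform share within a group), 14 held a library that stood apart from the rest of its group by Dixon's test; chance gives about 1 in 20. No explanation was weighed. P11 Het 2 had the highest Cox8b (0.916 CPM, next 0.0473), the highest Cox8b share of Cox8a and Cox8b counts (0.391%, next 0.02%) and the lowest mt-Nd1 (5210 CPM, next 5940); its raised muscle markers are given above. P5 Het 5 had the highest Cox6b2 (1.92 CPM, next 1.39) and Cox6b2 share (1.26%, next 0.978%). P5 Het 6, the library with conflicting age labels, had the lowest Cox7a1 (0.617 CPM, next 1.13), the lowest Cox7a1 share of Cox7a1 and Cox7a2 counts (0.386%, next 0.709%) and the lowest Ndufa7 (244 CPM, others 265 to 273). P5 Het 4 had the highest Cox7c-ps1 (0.518 CPM, next 0.307).

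In WT, P5 WT 6 had the highest Cox8b (0.227 CPM, next 0.0281) and Cox8b share (0.131%, next 0.015%). Among class sums, P5 WT 2 had the lowest for complex III (788 CPM, next 828), P11 WT 2 the highest for complex IV (1710 CPM, next 1570) and P5 WT 1 the highest for ATP synthase (2260 CPM, next 2130).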

How the results depend on the processing

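The 0 calls between genotypes, at either age, on average and for the interaction, held in every setting run, including DESeq2, limma-voom, the prefix block and each library left out. With age, 53 higher members in WT became 45 to 57 (48 to 60 with single libraries left out) and 81 in Het became 75 to 83 (77 to 84). The 6 lower members in WT became 3 without a filter on low counts, 3 with 5 libraries left out together for high muscle or oral keratinocyte markers (P5 Het 4, P5 Het 5, P11 WT 4, P11 WT 5 and P11 Het 2) and 3 to 7 with single libraries left out; it was 3 without any of P5 WT 3 to 6 or P5 Het 1, 2 or 6. The 3 lower members in Het became 2 to 3. As shares of all counts in place of TMM-scaled sums, the WT ratio of P11 to P5 was 1.24 in place of 1.12 ± 0.0313 for nuclear members. For mitochondrial members it was 1.57 in place of 1.44 ± 0.04. Here ± is the SD of the P11 WT sums over the P5 WT mean and leaves out the spread at P5. For the mitochondrial sums the SD was 781 CPM around a mean of 7790 CPM in P5 WT and 280 CPM in P11 WT. For prefix 2 against 1 at P11, the 10 lower members became 17 with DESeq2, 6 without the filter and 2 to 10 with single libraries left out. For prefix 4 against 3 at P5, 0 became 1 with DESeq2, 1 without the filter and 0 to 1 with single libraries left out (1 without P5 WT 4). The cause of these shifts was not tested.

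With the replicate number as a block, 52 members were higher and 5 lower in WT and 78 and 3 in Het, and 0 were called between genotypes. Same-numbered WT and Het libraries correlated at 0.04 to 0.21 at P5, with 3 of 6 over 0.1 and 3 correlating best with their own number. At P11 the range was -0.13 to 0.11, with 1 of 5 over 0.1 and 0 best. Between ages it was -0.03 to 0.08 in WT and -0.1 to -0.01 in Het. At P5, replicates 1 to 4 also share the prefix between genotypes, so this check does not settle whether same-numbered P5 libraries are paired. The prefix block could not be fitted for the age comparisons, whose prefixes do not overlap, and was not run there. Of 49 calls of named members, 37 held in every setting, and of 104 values not called, 4 gained a call in at least 1 setting: mt-Cytb with age in WT, mt-Nd6 for prefix 2, and mt-Co1 and mt-Nd5 for prefix 4. None of the 49 calls changed sign. Some values that were not called did, among them Ndufa4l2 in Het against WT at P11 (-0.39, range -0.56 to 0.32). The median of all genes stayed within 0.02 of 0. Depth limits mt-Co3, mt-Co2, mt-Atp6, mt-Atp8, Cox8b and the pseudogenes.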
